A study of Mus musculus with 21 samples.

Results

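The smooth muscle contractile genes are the genes of the actin filament, the myosin motor and the proteins that sit on both in smooth muscle cells. They were taken as 10 named genes, *Acta2*, *Tagln*, *Actg2*, *Cnn1*, *Cnn2*, *Myl9*, *Myh11*, *Lmod1*, *Smtn* and *Cald1*, each read from the row of the expression table that is annotated to that gene alone. Of these 10 genes 9 were measured, out of 14860 genes tested, because *Myl9*, which codes for a myosin regulatory light chain, had no row of its own and is not analysed here. Their expression was followed in forelimb buds (FBs) of Swiss mice, at the embryonic stages E10.5 and E12.5. FBs were taken either directly (0 h) or after the whole embryo had been cultured, for 1, 3 or 6 h at E10.5 and for 1 or 3 h at E12.5. All embryos are described as Swiss, with no mutant allele and no agent other than culture itself. Stage and time in culture are thus the stated differences between the 7 groups of 3 biological replicates. Levels of placenta and decidua genes also differed between groups, as given below. Each replicate was hybridized to 1 Affymetrix Mouse Exon 1.0 ST array, which gave 21 arrays, and how many embryos or litters entered a sample is not given in the sources used here. The p-values therefore measure the spread between these samples only. Medians over all rows ran from 6.00 to 6.60 log2 units and were lowest on E10.5 3 h replicate 2 and E10.5 6 h replicate 3, and 3 arrays per group limit the precision of every value.

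Smooth muscle cells contract when myosin pulls on actin filaments, and calponins, caldesmon, transgelin and smoothelin bind those filaments. Much of this program is switched on by serum response factor (SRF), which binds a short A/T-rich element called the CArG box, together with coactivators of the myocardin family. In the limb bud such cells are found in the wall of forming vessels, while *Acta2* is also known to be transcribed for a time in immature skeletal and cardiac muscle, and calponin 2 and non-muscle caldesmon are made by many other cells.

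The DNA before some of these genes is shown because SRF, which acts on many of them, binds an element that can be looked for in it. RefSeq promoter windows of GRCm38.p6, each from 250 bases before to 50 bases after an annotated start site, were found for 7 of the 10 genes in 8 windows, *Cald1* having a pair. *Acta2*, *Cnn1* and *Cnn2* are printed in full, 5′ to 3′ on the strand of the gene, as the actin with the largest change and as a pair of calponins, of which *Cnn1* was called at both stages and *Cnn2* at E12.5. Capitals mark a CArG box that is exact or differs from the motif in 1 of its 6 inner A/T positions.

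*Acta2*, chr19:34255324-34255623, minus strand: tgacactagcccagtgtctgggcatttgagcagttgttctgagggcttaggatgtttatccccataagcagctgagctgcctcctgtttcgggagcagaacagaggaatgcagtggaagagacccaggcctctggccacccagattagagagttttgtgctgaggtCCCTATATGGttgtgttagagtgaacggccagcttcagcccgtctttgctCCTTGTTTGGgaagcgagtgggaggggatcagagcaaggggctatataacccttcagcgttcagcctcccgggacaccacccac
*Cnn1*, chr9:22099003-22099302, plus strand: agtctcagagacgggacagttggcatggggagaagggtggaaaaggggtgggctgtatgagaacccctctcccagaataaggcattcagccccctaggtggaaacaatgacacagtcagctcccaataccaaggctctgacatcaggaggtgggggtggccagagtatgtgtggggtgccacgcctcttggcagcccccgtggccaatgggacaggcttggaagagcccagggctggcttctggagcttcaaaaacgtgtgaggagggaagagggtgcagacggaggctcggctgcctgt
*Cnn2*, chr10:79988350-79988649, plus strand: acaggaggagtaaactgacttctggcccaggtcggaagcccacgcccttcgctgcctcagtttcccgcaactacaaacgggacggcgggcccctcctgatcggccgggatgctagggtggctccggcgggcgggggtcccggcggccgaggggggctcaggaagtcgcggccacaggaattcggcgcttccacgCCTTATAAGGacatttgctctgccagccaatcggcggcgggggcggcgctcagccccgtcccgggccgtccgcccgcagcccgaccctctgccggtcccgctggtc

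An exact CArG box, searched on both strands of the 10-base motif, was present in the windows of *Cnn2*, starting at -56 from the start site, and of *Myl9*, at -161. Of all 32851 mouse promoter windows of the same length, 1.63% held an exact match. The *Acta2* window held 2 boxes with 1 inner base differing, at -84 and -34, and *Myl9* held another at -99. Such near matches were found in 8.5% of all windows. Allowing 1 mismatch anywhere, windows of 5 genes (*Acta2*, *Cald1*, *Cnn2*, *Lmod1* and *Myl9*) had a match, against 21.1% of all windows. The *Cnn1* window had none under any of these definitions. Both matches of *Lmod1*, a gene whose level stayed low in these FBs, differ from the box in an outer base, and they are shown in capitals within 10 bases on each side.

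*Lmod1*, match at -189, chr1:135324624-135324633, plus strand: gcccccttgtCTTTAAAAGGctaaactgct
*Lmod1*, match at -164, chr1:135324649-135324658, plus strand: ctgctctgtaCTAAATTTGGtcacgcagcg

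The motif CATTCC, read on both strands and bound by TEAD factors, was found in the windows of *Acta2*, *Cald1*, *Lmod1* and *Smtn* and in 14.7% of all windows. TATAAA on either strand was found in 1 window of *Cald1* and in 13.6% of all windows. A match is a description of these letters and not evidence of binding.

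**Figure D1:**
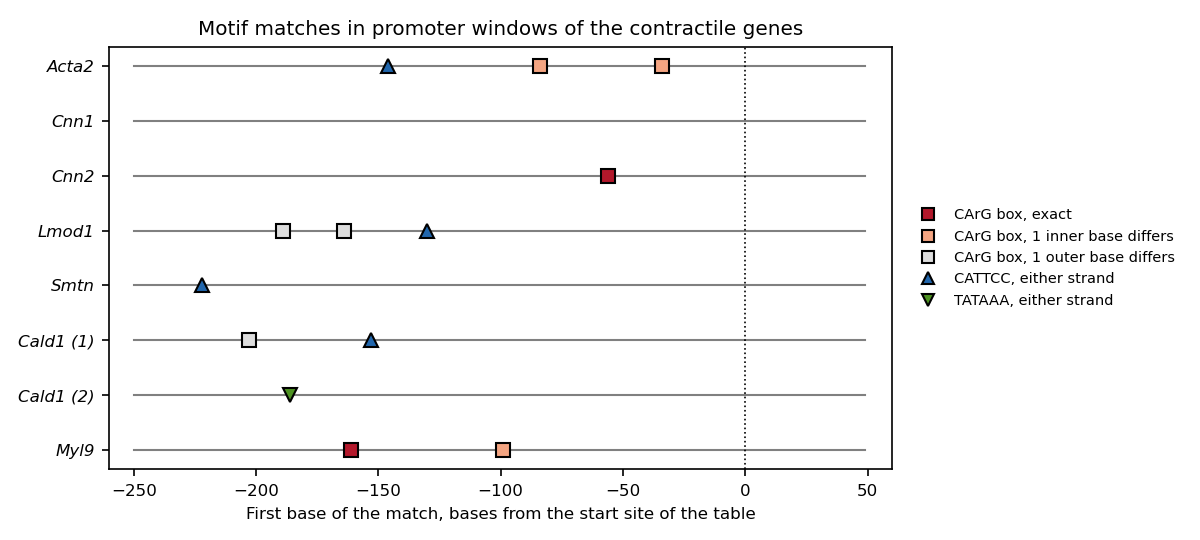
Position of motif matches (x axis, bases from the annotated start site, dotted line at 0) in the 8 promoter windows of the contractile genes, 1 grey line per window. Red squares are exact CArG boxes (*Cnn2* and *Myl9*), orange squares differ in 1 inner base, light grey squares in 1 outer base, and triangles are the TEAD and TATA motifs. *Acta2* carries its 2 near matches at -84 and -34, and *Cnn1* carries no match.

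Placing embryos in culture was followed by higher levels of some of the contractile genes at both stages. In E10.5 FBs *Acta2* and *Tagln* rose within 1 h and stayed up to 6 h, joined by *Cnn1* at 3 h and by *Cald1* at 3 and 6 h. In E12.5 FBs *Tagln* and *Cnn2* rose at 1 h and *Actg2* and *Cnn1* also at 3 h, whereas *Acta2*, already high, did not pass the test. *Myh11*, the heavy chain of smooth muscle myosin, and *Lmod1*, which nucleates actin filaments in smooth muscle, were not called in any comparison. None of the 9 genes was called as lower than at 0 h in any culture group. In whole FBs a change in the number of cells of a type and a change in RNA per cell cannot be told apart. All values below are RMA log2 values, and calls were made where limma gave an adjusted p under 0.05, with the Benjamini-Hochberg adjustment over all 14860 genes. Comparisons at 1, 3 and 6 h share the same 0 h arrays of their stage.

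At E10.5, 2 of the 9 genes were called after 1 h, when 3.91% of all genes were called. After 3 h 4 of 9 were called, against 4.68% of all genes, and after 6 h 3 of 9 were called, against 6.76%. The median change of the 9 genes was 0.17, 0.29 and 0.12 at these times, beside a median of all genes between -0.04 and -0.01. At E12.5, 2 of the 9 genes were called after 1 h, when 2.11% of all genes were called. After 3 h 4 of 9 were called, but 27.5% of all genes were called there too. The 9 genes had median changes of 0.56 and 0.50 at E12.5, beside medians of all genes of 0 and 0.01. *Acta2*, *Tagln*, *Actg2*, *Cnn1* and *Myl9* are also named among genes that the study selected on these same arrays, so that their direction is not independent evidence.

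**Figure D2:**
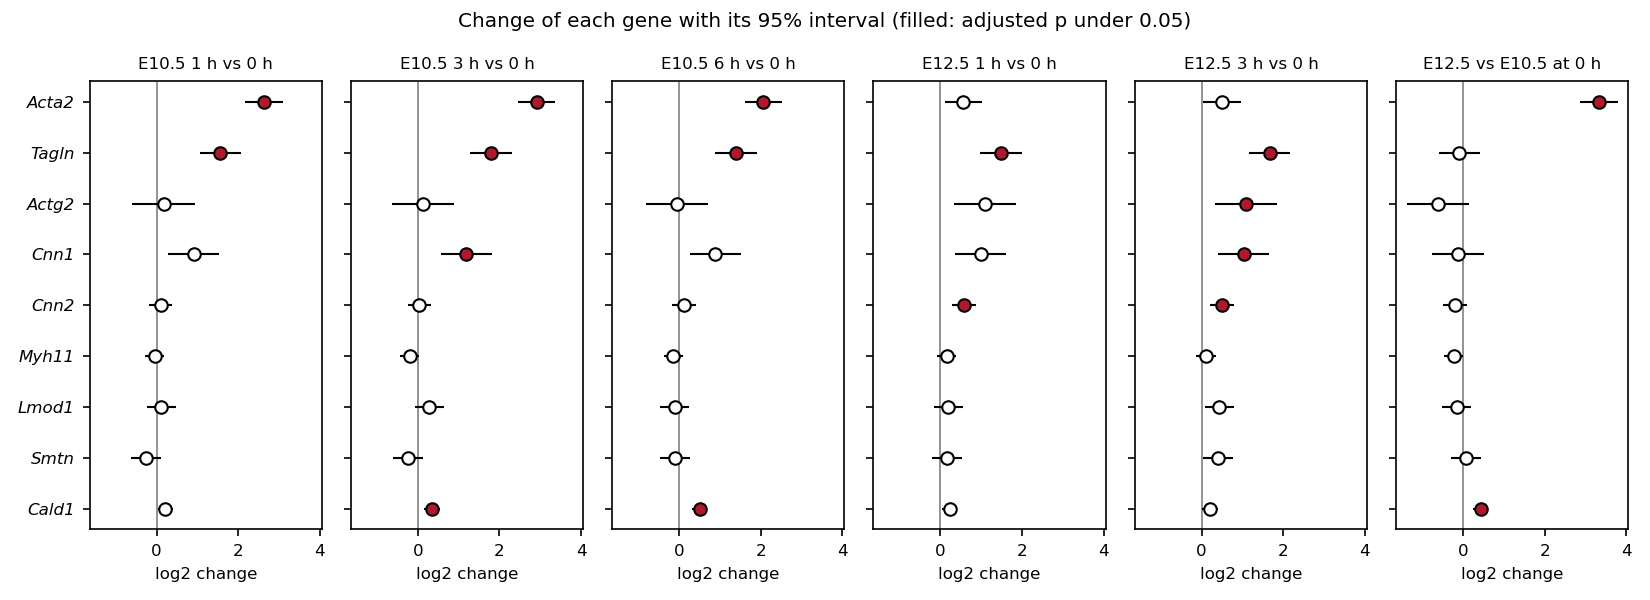
Change of each of the 9 genes (x axis, log2, point with 95% interval from limma) in the 5 comparisons of cultured with directly taken FBs and between stages at 0 h. Filled points were called at an adjusted p under 0.05. *Tagln* is filled in all 5 culture comparisons, *Acta2* in those at E10.5 and between stages, and *Myh11*, *Lmod1* and *Smtn* in none.

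*Acta2*, alpha smooth muscle actin, lies on chromosome 19 and showed the widest range of group means of the 9 genes, 3.90 on the log2 scale. In E10.5 FBs taken directly the 3 arrays gave 8.82, 8.65 and 8.21. After 1 h they gave 11.64, 11.07 and 10.86, and after 3 h 11.87, 11.18 and 11.36. All 6 of these cultured arrays lay above the 3 arrays at 0 h by more than 2 log2 units. After 6 h the values were 10.86, 10.28 and 10.75, still above every 0 h array and below every array at 3 h. The change was 2.63 at 1 h (SE 0.22, 6.18-fold, limma adjusted p = 2.09e-06), 2.91 at 3 h (7.52-fold, adjusted p = 5.15e-07) and 2.07 at 6 h (4.19-fold, adjusted p = 8.89e-06). From 3 to 6 h *Acta2* changed by -0.84 (SE 0.22, adjusted p = 0.0518), just outside the threshold, and it passed the threshold when E10.5 3 h replicate 2 or 6 h replicate 1 was left out.

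At E12.5 the same gene started near the level that culture had reached at E10.5. The 3 arrays at 0 h gave 11.64, 11.85 and 12.19, and every one of them exceeded the E10.5 arrays at 0 h. After 1 h they gave 12.41, 12.48 and 12.48 and after 3 h 12.40, 12.39 and 12.39, so that the arrays at each cultured time lay above those at 0 h and close to one another. The change was 0.56 at 1 h (95% interval 0.11 to 1.02, limma adjusted p = 0.242) and 0.50 at 3 h (0.04 to 0.96, adjusted p = 0.103), neither of which passed the test. In a fit on the 2 compared groups alone the 3 h change was called (adjusted p = 0.027). The highest value of any row on any array, rows without a single gene included, was 14.67. Whether probe signal limits the readings of *Acta2* at E12.5 was not tested, since probe intensities are not analysed here.

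Between stages at 0 h *Acta2* was 3.33 log2 units higher at E12.5 (SE 0.22, 10.1-fold, limma adjusted p = 7.72e-09). It was 1 of 2 of the 9 genes called, the other being *Cald1*, and 27.1% of all genes were called. The difference between the stages in the response to culture was tested by itself. The change at E12.5 minus that at E10.5 was -2.07 at 1 h (SE 0.31, limma adjusted p = 0.00341) and -2.41 at 3 h (SE 0.31, adjusted p = 0.000378). *Acta2* was the only one of the 9 genes called in this test, at 1 h against 0.538% of all genes and at 3 h against 14.3%. With the mean level of placenta and decidua genes as a covariate, the difference at 1 h was -1.63 with an adjusted p of 0.0675.

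Levels of *Acta2* went along with skeletal muscle genes at some times but not at others. The mean log2 value of 17 measured skeletal muscle genes lay between 6.06 and 6.70 in E10.5 FBs at 0 h, between 7.12 and 7.77 at 1 h, between 6.45 and 7.48 at 3 h and between 6.43 and 6.62 at 6 h. At 6 h the list mean was thus within its 0 h range, while *Acta2* was still higher than at 0 h by 2.07. From 1 to 3 h the list had a median change of -0.53 and *Acta2* changed by 0.28. At E12.5 the list mean lay between 7.60 and 8.38 at 0 h and between 8.41 and 8.67 in culture. Of the 17, 5 rose at 1 h, 2 at 3 h and 1 at 6 h of E10.5 culture, and between stages 12 rose and 1 fell. In E12.5 culture, where *Acta2* was not called, 1 rose after 1 h and 7 after 3 h. Of all genes, 2.79%, 3.23% and 3.89% rose at 1, 3 and 6 h of E10.5 culture. At 1 and 3 h of E12.5 culture 1.29% and 9.94% of all genes rose. Between stages 19.7% of all genes rose and 7.39% fell. Within groups, the deviations of *Acta2* from its group means correlated with those of the list over the 21 arrays (Pearson r = 0.80, Spearman rank correlation 0.66), and over the 19 arrays left after the 2 of lowest median were set aside r was 0.80. For the 8 heart muscle genes r was 0.76, for 11 paralogs of the contractile genes, among them *Acta1*, 0.72, for 13 neuron genes 0.52 and for the 11 pericyte genes 0.32. For 27 other genes of smooth muscle and of actomyosin r was 0.43. For the remaining lists it lay between -0.51 (limb mesenchyme) and 0.24 (mesothelium). Other contractile genes differed from *Acta2* in this. With the pericyte list r was 0.72 for *Tagln*, 0.80 for *Cnn1*, 0.74 for *Cnn2*, 0.82 for *Myh11* and 0.79 for *Smtn*. It was 0.48 for *Actg2*, 0.31 for *Cald1* and -0.03 for *Lmod1*. Over the 19 arrays these values lay between 0.04 (*Lmod1*) and 0.61 (*Tagln*). With the skeletal list they lay between -0.18 (*Cald1*) and 0.52 (*Tagln*) over the 21 arrays. The heart list holds *Actn2*, with group means of 5.84 at E10.5 0 h and 10.29 at E12.5 0 h. Whether the heart list is separate from the skeletal one was not tested. Arrays share their scaling, so these correlations describe the arrays, and the part of striated muscle in the *Acta2* result was not tested.

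The other actins did not share one course. *Actg2*, gamma smooth muscle actin of visceral muscle, gave 4.57, 5.71 and 5.44 in E10.5 FBs at 0 h, and its cultured arrays, from 4.58 to 5.99, overlapped these at every time. At E12.5 it gave 4.70, 4.32 and 4.85 at 0 h, 5.82, 5.49 and 5.82 after 1 h and 6.26, 5.51 and 5.34 after 3 h, with no overlap between cultured and directly taken FBs. The change was 1.09 at 1 h (SE 0.36, limma adjusted p = 0.151) and 1.08 at 3 h (adjusted p = 0.0331), and the call at 3 h was lost without E12.5 0 h replicate 1 or 2 or without 3 h replicate 1 or 2. The difference between stages in these changes, 0.92 at 1 h (adjusted p = 0.528) and 0.96 at 3 h (adjusted p = 0.22), did not pass the test. Under the placenta and decidua covariate *Actg2* changed by 1.25 at 1 h of E10.5 culture (limma adjusted p = 0.242) and by 1.11 at 3 h (adjusted p = 0.245). At E12.5 these changes were 1.22 and 1.21, and the 1 h difference between stages was -0.03. Within groups, deviations of *Actg2* correlated with those of the placenta and decidua genes (r = 0.59, 21 arrays). The part of such tissue in its E10.5 values was not tested further.

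*Acta1*, skeletal muscle alpha actin and a close relative of *Acta2* in sequence, gave 8.18, 7.32 and 7.22 in E10.5 FBs at 0 h and 9.86, 9.16 and 8.92 at 1 h. Each 1 h array lay above each 0 h array, and the gene rose by 1.73 at 1 h (SE 0.34, limma adjusted p = 0.00773) and by 1.33 at 3 h (adjusted p = 0.0323). At 6 h its change was -0.10 (adjusted p = 0.899), while *Acta2* was still up, and at 0 h it was 2.98 higher at E12.5 than at E10.5 (adjusted p = 4.41e-06). *Actg1*, cytoplasmic gamma actin, is not analysed here. *Actb*, cytoplasmic beta actin, had group means between 13.66 and 13.98 and was not called in any culture comparison. Whether probes of one actin also detect another was not tested.

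*Tagln*, which codes for the actin-binding protein transgelin (SM22), was the only one of the 9 genes called in all 5 culture comparisons. At 0 h the arrays gave 6.51, 6.36 and 6.06 at E10.5 and 6.13, 6.01 and 6.52 at E12.5. These 2 groups overlapped, and their difference was -0.09 (95% interval -0.60 to 0.42). In E10.5 culture *Tagln* gave 7.94, 7.94 and 7.75 at 1 h, 8.40, 7.68 and 8.22 after 3 h and 8.28, 7.64 and 7.18 after 6 h. In E12.5 culture it gave 7.69, 7.67 and 7.77 at 1 h and 8.26, 7.62 and 7.78 at 3 h. No cultured array of either stage reached down to a 0 h array of its stage.

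*Tagln* rose by 1.57 at 1 h of E10.5 culture (SE 0.24, 2.96-fold, limma adjusted p = 0.00138), by 1.79 at 3 h (adjusted p = 0.000264) and by 1.39 at 6 h (adjusted p = 0.00133). At E12.5 it rose by 1.49 at 1 h (2.80-fold, adjusted p = 0.00284) and by 1.67 at 3 h (adjusted p = 0.000135). The difference between stages was -0.08 at 1 h (95% interval -0.80 to 0.64) and -0.12 at 3 h (-0.84 to 0.59), so that neither direction was settled. With the placenta and decidua covariate the E10.5 changes were 1.22 at 1 h (adjusted p = 0.142) and 1.47 at 3 h (adjusted p = 0.0515). That list of 8 genes had array means of 4.71, 7.36 and 6.98 in E10.5 FBs at 0 h, compared with a range of 3.83 to 3.92 after 1 h and of 3.95 to 4.29 after 3 h. After 6 h its means were 4.86, 6.65 and 5.34, and *Tagln* remained called under the covariate there (1.29, limma adjusted p = 0.00468). The part of such tissue in the E10.5 changes was not tested beyond this covariate.

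*Cnn1*, basic calponin of differentiated smooth muscle, gave 4.84, 5.34 and 5.11 at 0 h of E10.5 and 6.05, 6.14 and 5.85 at 1 h, followed by 6.77, 5.44 and 6.64 at 3 h and 6.35, 6.25 and 5.36 at 6 h. Its arrays did not overlap those at 0 h at any time, although E10.5 3 h replicate 2 and 6 h replicate 3 lay near them. These were the 2 arrays with the lowest median over all rows. *Cnn1* changed by 0.92 at 1 h (SE 0.30, limma adjusted p = 0.0993), rose by 1.18 at 3 h (adjusted p = 0.0295) and changed by 0.89 at 6 h (adjusted p = 0.086). Without these 2 arrays, an alternative chosen after seeing the data, all 3 changes were called, that at 6 h with an adjusted p of 0.00049 in limma. The call at 3 h was lost on leaving out any 1 array of the comparison other than 3 h replicate 2, and with the placenta and decidua covariate.

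At E12.5 *Cnn1* gave 5.18, 4.67 and 5.08 at 0 h, 6.02, 5.78 and 6.10 after 1 h and 6.23, 6.06 and 5.72 after 3 h, again without overlap with 0 h. It changed by 0.99 at 1 h (adjusted p = 0.101) and rose by 1.03 at 3 h (SE 0.30, limma adjusted p = 0.0154). The call at 3 h was lost without E12.5 0 h replicate 2 or 3 h replicate 1.

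*Cnn2*, the calponin of smooth muscle and of many motile cells, gave 11.67, 11.48 and 11.39 in E10.5 FBs at 0 h, and 11.24 to 11.94 in culture, with overlap at each time. At E12.5 it gave 11.32, 11.27 and 11.36 at 0 h, 11.79, 11.94 and 11.96 after 1 h and 11.88, 11.83 and 11.73 after 3 h. The 6 arrays of E12.5 culture all lay above those at 0 h. *Cnn2* rose by 0.58 at 1 h (SE 0.14, limma adjusted p = 0.0327) and by 0.50 at 3 h (adjusted p = 0.0112), and the call at 1 h was lost on leaving out any 1 of its 6 arrays. At E10.5 its changes lay between 0.04 and 0.12. The difference between stages, 0.48 at 1 h (adjusted p = 0.354) and 0.46 at 3 h (adjusted p = 0.117), did not pass the test. *Cnn3*, the relative expressed widely outside muscle, fell by 0.36 at 3 h of E12.5 culture (adjusted p = 0.00404) and was not called in the other culture comparisons.

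**Figure D3:**
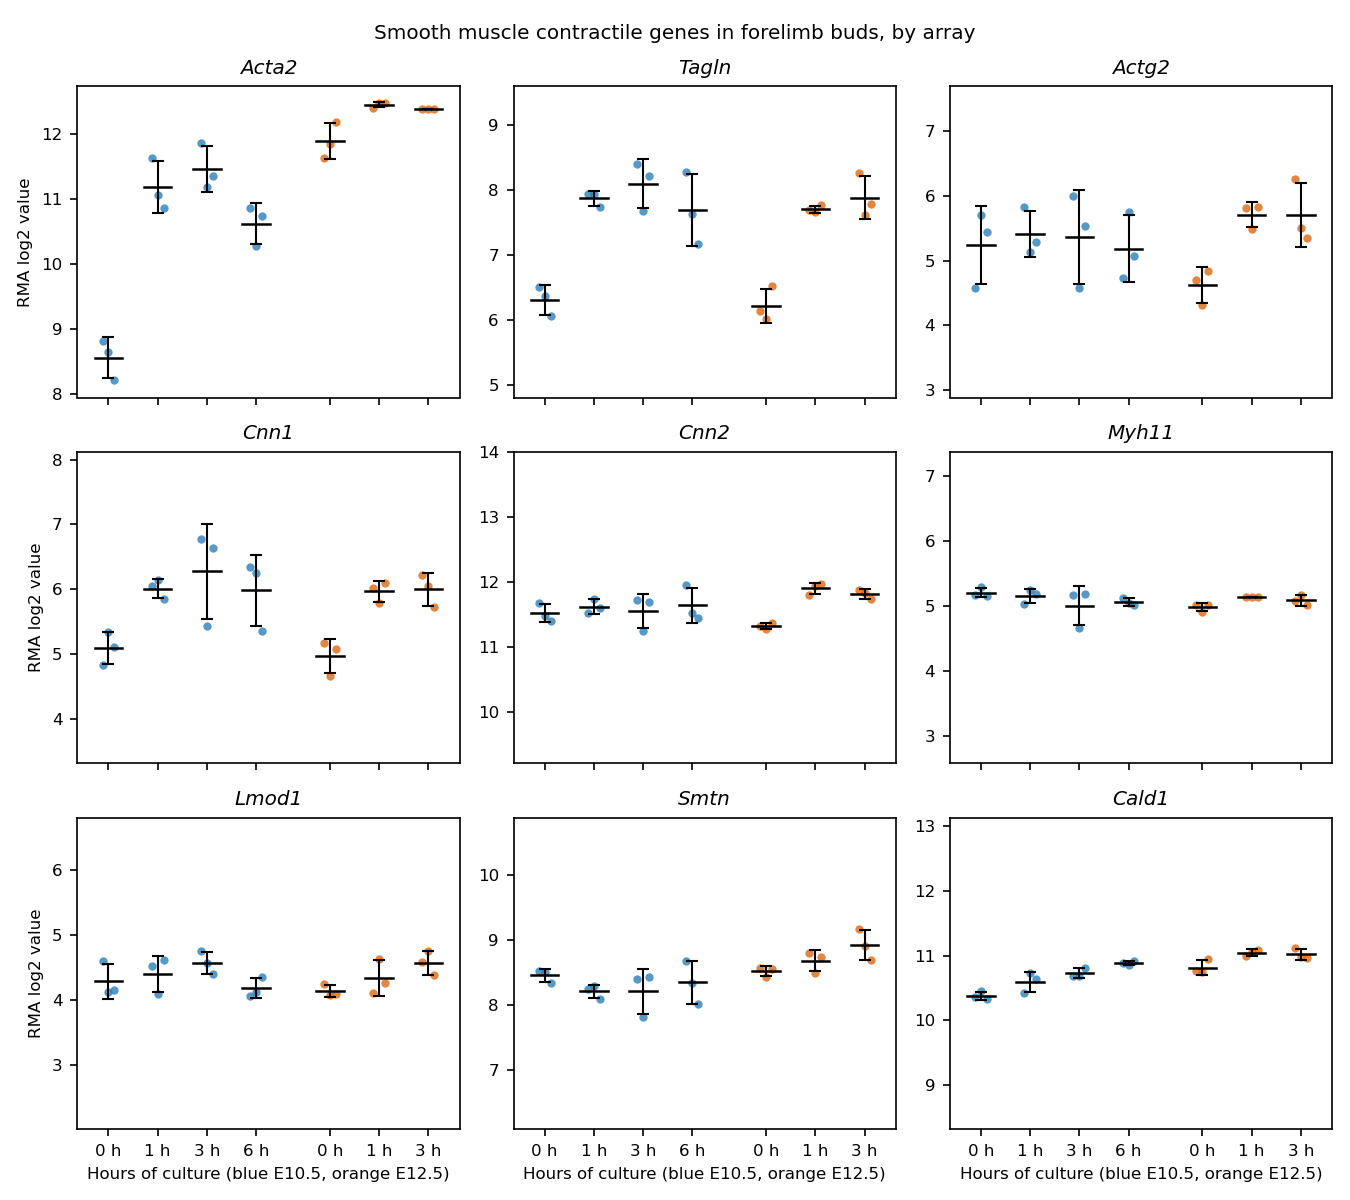
RMA log2 value of each of the 9 measured contractile genes on each array (points, y axis, the same span of 4.8 log2 units in every panel) by stage and hours of culture (x axis), with the mean and SD of 3 arrays in black. *Acta2* separates E10.5 at 0 h from all other groups, *Tagln* separates 0 h from culture at both stages, and *Myh11* lies between 4.67 and 5.29 throughout.

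*Cald1*, caldesmon, binds actin and tropomyosin and has smooth muscle and non-muscle forms that a gene-level value does not separate. It gave 10.36, 10.45 and 10.34 in E10.5 FBs at 0 h, 10.68, 10.69 and 10.81 after 3 h and 10.89, 10.85 and 10.92 after 6 h, with no overlap with 0 h at either time. The changes were small against those of *Acta2* and *Tagln* but so was the spread, and *Cald1* rose by 0.34 at 3 h (SE 0.09, limma adjusted p = 0.0351) and by 0.50 at 6 h (1.42-fold, adjusted p = 0.00159). Its call at 3 h was lost on leaving out any 1 array of that comparison except 3 h replicate 2, after a shift of all arrays to a common median (adjusted p = 0.159) and with the placenta and decidua covariate (adjusted p = 0.225). In E12.5 culture *Cald1* changed by 0.23 at 1 h (adjusted p = 0.257) and 0.20 at 3 h (adjusted p = 0.107). Between stages at 0 h it was 0.43 higher at E12.5 (adjusted p = 0.00148), and 0.19 higher (adjusted p = 0.313) when all arrays were shifted to a common median.

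The scaling matters for that comparison. The shift to a common median moved the median difference of all genes between stages from 0.03 to -0.22, and it turned 2925 genes higher and 1098 lower at E12.5 into 1491 higher and 3628 lower. Under it *Acta2* remained higher at E12.5, and *Actg2* (-0.87, limma adjusted p = 0.0396), *Cnn2* (-0.44, adjusted p = 0.0154) and *Myh11* (-0.47, adjusted p = 0.00583) were called as lower. As deposited these 3 differences were -0.62, -0.20 and -0.22, and none passed the test.

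*Smtn*, smoothelin, a cytoskeletal protein of contractile smooth muscle, ranged from 7.81 to 9.16 over the arrays. At E10.5 its changes in culture were between -0.25 and -0.11, and at E12.5 they were 0.16 at 1 h and 0.41 at 3 h (limma adjusted p = 0.0955), so that no change was called. At 1 h of E10.5 culture *Smtn* gave 8.24, 8.29 and 8.09, all below the 8.52, 8.50 and 8.34 at 0 h. At E12.5 it gave 8.57, 8.43 and 8.56 at 0 h and 9.16, 8.91 and 8.69 at 3 h, which did not overlap, and with both scaling alternatives the 3 h change was called (0.45 and 0.50, adjusted p = 0.0236 and 0.0137).

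*Myh11* stayed within 4.67 to 5.29 and *Lmod1* within 4.07 to 4.76 over all 21 arrays. Group means of *Myh11* spanned 0.22, and its culture changes lay between -0.20 and 0.15. Its arrays at 6 h of E10.5 culture (5.01 to 5.13) lay below those at 0 h (5.16 to 5.29). Those at 1 h of E12.5 culture (all 5.14) lay above those at 0 h (4.91 to 5.02). Group means of *Lmod1* spanned 0.44, and its highest change was 0.44 at 3 h of E12.5 culture (95% interval 0.08 to 0.79, limma adjusted p = 0.0647). *Myh11*, *Lmod1* and *Actg2* were among the 30% of genes with the lowest mean over all arrays, so that 6 of the 9 genes passed that filter.

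Later steps in culture brought few differences. From 1 to 3 h at E10.5 limma called none of the 9 genes and 0% of all genes, although 1409 of all genes and 0 of the 9 had an unadjusted p under 0.05. An unpaired comparison of each gene on its own variance, with the same adjustment, called 0% of all genes. It therefore says nothing about the 9 in particular. From 3 to 6 h at E10.5 none of the 9 was called, against 2.27% of all genes. *Acta2* and *Lmod1* (-0.39) had an unadjusted p under 0.05, as did 2394 of all genes. From 1 to 3 h at E12.5 none was called against 11.5% of all genes. There 0 of the 9 and 3597 of all genes had an unadjusted p under 0.05. Ordered by group mean, *Acta2* ran from E10.5 0 h (8.56 ± 0.32, SD, n = 3) through 6 h (10.63 ± 0.31), 1 h (11.19 ± 0.40) and 3 h (11.47 ± 0.36) of E10.5 culture to E12.5 0 h (11.90 ± 0.28), 3 h and 1 h (12.39 and 12.46). Neighbouring groups overlapped from E10.5 1 h to E12.5 0 h. For *Tagln* the order ran from the 0 h groups of both stages (6.22 ± 0.26 at E12.5 and 6.31 ± 0.23 at E10.5, which overlapped) to the cultured groups between 7.70 and 8.10, in which every neighbour overlapped the next. *Cnn1* split in the same way, with the 0 h groups at 4.97 ± 0.27 and 5.10 ± 0.25 and the cultured groups between 5.97 and 6.28.

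Regulators of the program were read from a list of 21 measured genes. At E10.5 3, 5 and 6 of the 21 rose at 1, 3 and 6 h and none fell, and at E12.5 1 rose at 1 h while 7 rose and 3 fell at 3 h. Of all genes, 2.79%, 3.23% and 3.89% rose at these E10.5 times and 1.12%, 1.45% and 2.87% fell. At E12.5 1.29% rose and 0.828% fell at 1 h, while 9.94% rose and 17.6% fell at 3 h. The same shares stand beside the counts of every list that follows. *Gata6*, a zinc finger factor of vascular smooth muscle, heart and endoderm, gave 8.10, 8.44 and 8.13 in E10.5 FBs at 0 h and 9.33 to 10.04 at 1 h, without overlap. It rose by 1.53, 2.11 and 2.47 at 1, 3 and 6 h (limma adjusted p = 0.000482, 1.64e-05 and 1.03e-06) and by 1.11 at 3 h of E12.5 culture (adjusted p = 0.000966). *Prkg1*, the cGMP-dependent kinase that relaxes smooth muscle, was called in all 5 culture comparisons, with changes of 1.70, 1.52 and 2.18 at E10.5 and 1.29 and 0.84 at E12.5. *Srf* itself changed by 0.36, 0.05 and -0.23 at E10.5 and by 0.73 at 1 h of E12.5 culture, none of them called, and rose by 0.72 at 3 h of E12.5 culture (adjusted p = 0.00955). *Myocd*, the SRF coactivator myocardin, was not called in culture and was 0.57 higher at E12.5 than at E10.5 at 0 h (adjusted p = 0.00933). *Smad2*, which carries TGF-beta signals to the nucleus, fell by 0.57 at 3 h of E12.5 culture (adjusted p = 8.73e-05).

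Of 12 measured early genes that depend on SRF, 1 rose at 1 h and 1 at 3 h of E10.5 culture and 1 fell at 6 h. At E12.5 none was called at 1 h and 5 rose at 3 h. *Srf* is on both this list and that of the regulators. *Egr1*, a zinc finger factor, rose by 0.81 at 1 h of E10.5 culture (limma adjusted p = 0.0199) and by 1.27 at 3 h of E12.5 culture (adjusted p = 0.000137). *Dusp1*, a phosphatase of MAP kinases, rose by 1.46 at the latter time (adjusted p = 0.000158) and had changes between -0.08 and 0.07 at E10.5.

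Among 27 other genes of smooth muscle and of actomyosin, 6, 5 and 4 rose and 1 each fell at 1, 3 and 6 h of E10.5 culture. At E12.5 5 rose after 1 h, while 7 rose and 1 fell after 3 h. *Tpm1*, alpha tropomyosin, rose in all 5 comparisons by 0.45 to 0.75. *Pgm5*, aciculin of adherens junctions in muscle, rose by 1.38, 1.54 and 1.48 at E10.5 (adjusted p = 0.0002, 4.55e-05 and 2.4e-05 in limma) and by 0.60 at 3 h of E12.5 culture (adjusted p = 0.0156). The integrin chain *Itga8* rose at E10.5, by 0.64, 0.52 and 1.06, and *Itga5*, the chain of the fibronectin receptor, rose at E12.5, by 0.59 and 1.13. The difference between the stages, E12.5 minus E10.5, was -0.49 and 0.41 at 1 h (adjusted p = 0.318 and 0.356 in limma) and -0.62 and 0.85 at 3 h (adjusted p = 0.0373 and 0.005). Of 11 paralogs of the contractile genes, 2, 2 and 1 rose at E10.5 and none at E12.5, where 1 (*Cnn3*) fell at 3 h.

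Markers of cells that could carry these transcripts moved as well, and their counts are to be read beside the shares of all genes given above. Of 11 pericyte and mural cell genes, 0, 1 and 1 rose at 1, 3 and 6 h of E10.5 culture and 2 and 5 at 1 and 3 h of E12.5 culture, and none fell. Their mean lay between 6.89 and 7.06 in E10.5 FBs at 0 h and between 6.95 and 7.45 in culture, and at E12.5 between 7.12 and 7.31 at 0 h and between 7.31 and 7.74 in culture. *Pdgfrb*, a receptor on that list, was called at 3 h of E12.5 culture (0.42, limma adjusted p = 0.0135) and in no other culture comparison. Its group means lay between 10.47 and 10.89. At 0 h and 3 h of E12.5, *Notch3* had group means of 8.73 and 9.60 and *Anpep* of 9.22 and 9.39. Of 12 coelomic mesothelium genes, 6, 7 and 7 rose and 1, 0 and 1 fell in E10.5 culture, and their mean lay between 7.29 and 7.85 at 0 h and between 8.27 and 9.34 in culture. At E12.5 1 rose after 1 h and 4 after 3 h, and their mean lay between 6.96 and 7.21 at 0 h, between 7.05 and 7.25 after 1 h and between 7.30 and 7.55 after 3 h, so that the 3 h arrays lay above those at 0 h. Of 8 heart muscle genes 1, 1 and 0 rose at E10.5, and the defining *Nkx2-5* was not called. Of 14 endothelium genes 1, 4 and 4 rose in E10.5 culture, and at E12.5 none was called after 1 h while 5 rose and 1 fell after 3 h. Of 13 neuron and sympathetic ganglion genes 4, 2 and 1 rose at E10.5, with 1 lower after 1 h, and none was called in E12.5 culture. E10.5 1 h replicate 1 stood apart in that list, with a mean of 9.66 against 6.85 and 6.98 on the other 1 h arrays, and it was also the highest 1 h array for *Acta2* and for the skeletal muscle genes. Without it *Acta2* still rose by 2.41 at 1 h (limma adjusted p = 1.34e-05) and *Tagln* by 1.53 (adjusted p = 0.00808). Limb mesenchyme genes, 12 in number, fell in 5, 1 and 5 cases at E10.5 and in 2 and 1 at E12.5, and 1 rose at 6 h of E10.5 culture. *Hand2*, which is on both this list and the neuron list, had group means of 9.65 at 0 h and 8.83 at 1 h of E10.5. *Prrx1*, a homeobox factor that marks limb mesenchyme, had group means between 11.4 and 12.1. No array value on this scale is a true 0, and the part of any of these cells in the contractile gene results was not tested.

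**Figure D4:**
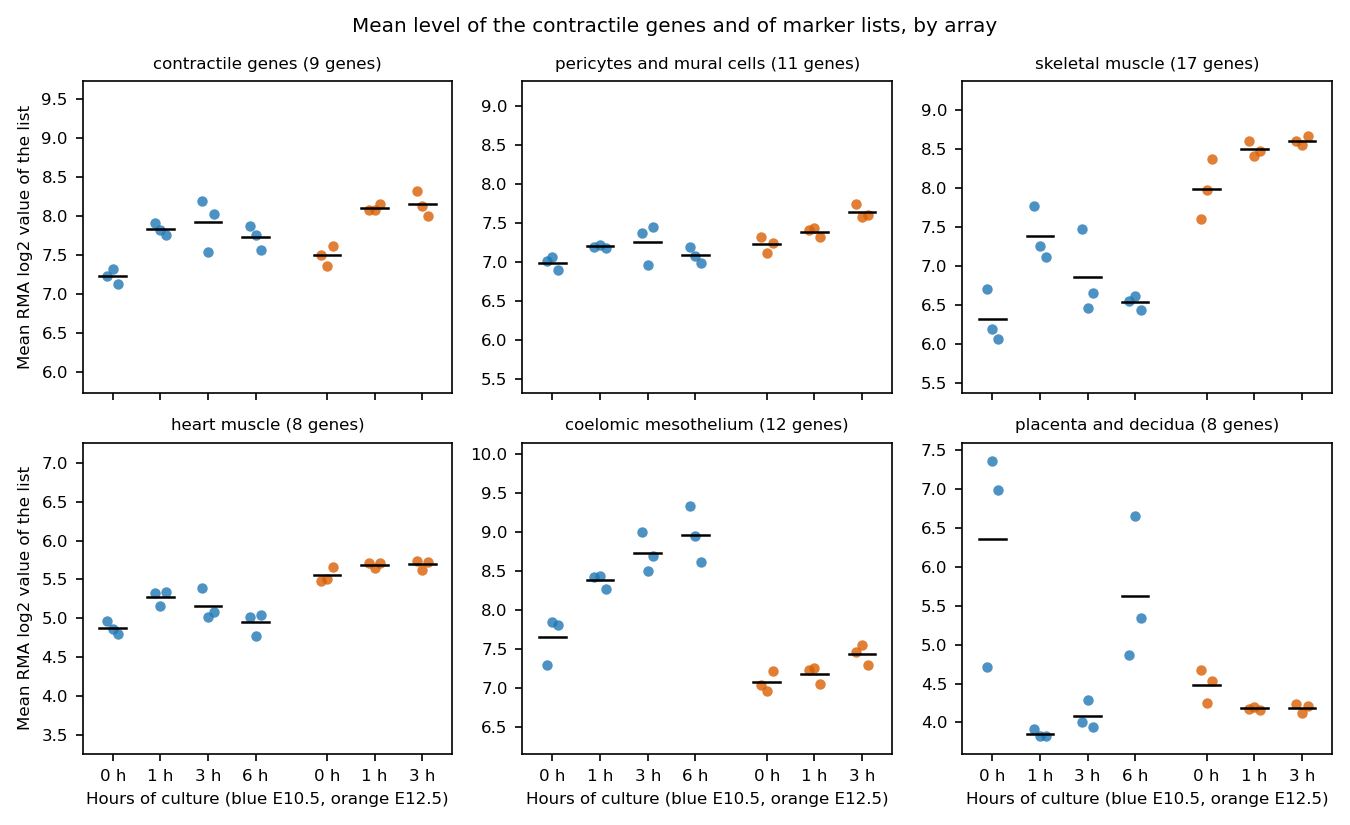
Mean RMA log2 value of the 9 contractile genes and of 5 marker lists on each array (points, y axis, 4 log2 units in every panel) by stage and hours of culture (x axis), with the group mean as a black line. At 0 h the mean of the skeletal muscle list is higher at E12.5 than at E10.5. So is the mean of the heart list, although 2 of its 8 genes were called as higher and its median change was -0.21. Mesothelium means are higher in E10.5 culture than in E10.5 FBs at 0 h. Placenta and decidua means are scattered between 4.71 and 7.36 in E10.5 FBs at 0 h.

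The 9 genes were not one block. With each gene centred on its mean over the arrays, the mean of the 9 correlated over the 21 arrays with *Tagln* (r = 0.84), *Cnn1* (0.82), *Acta2* (0.77), *Cnn2* (0.75), *Cald1* (0.70) and *Actg2* (0.64), each of which is part of it, and less with *Smtn* (0.49), *Lmod1* (0.39) and *Myh11* (0.17). Outside the 9, the genes of all those tested with the highest r to this mean over the 21 arrays were *Corin* (0.93), a membrane protease that activates natriuretic peptides, *Cxcl13* (0.90), a chemokine, *Tgfb1i1* (0.89), a focal adhesion adaptor also called Hic-5, *Loxl2* (0.89), a collagen cross-linking oxidase, *Synj2* (0.89), a phosphoinositide phosphatase, and *Igfbp5* (0.89), a binding protein of insulin-like growth factors. *Cxcl13* had group means of 4.51 ± 0.06 and 4.99 ± 0.18 at 0 h of E10.5 and E12.5 and of 6.18 to 8.12 in culture (SD, n = 3). *Corin* went from 5.57 ± 0.22 to 7.08 to 7.46 at E10.5 and from 6.72 ± 0.26 to 7.77 and 8.05 at E12.5. These correlations share the groups and the array scaling and are given as a description.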

How the data were processed

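Expression was measured on 21 arrays, 3 for each of 7 groups of FBs. The deposited values are log2 intensities that the authors computed by RMA in the Affymetrix Expression Console. RMA in general corrects background, quantile normalizes and summarizes probes, and such values do not measure total RNA. The medians of these arrays still differed, from 6.00 to 6.60 log2 units, and whether all arrays were normalized together was not tested. Of 23332 rows, 14996 carried 1 gene, while 1019 with several genes and 7317 with none were left out. For 135 genes with several rows the row of highest mean was kept, which gave 14860 genes. Group means were fitted over all arrays with limma 3.58.1 in R 4.3.3, with Benjamini-Hochberg adjustment and a threshold of 0.05, and the fit was tested on simulated data. An exact permutation test of 3 against 3 arrays cannot give a p below 0.1, so none was used. The members and gene lists were chosen with earlier results of these data known. The text names all measured members, up to 4 genes of each pathway list by smallest adjusted p, a few regulators, actins and marker genes, and the 6 genes most like the members' mean. Promoter windows came from RefSeq (GRCm38.p6). Alternatives were other scalings, a filter on dim genes, array weights, a trended robust prior, a placenta and decidua covariate, a replicate block, fits on the compared groups alone, other thresholds, an unpaired t-test for each gene and leaving out arrays. Same-numbered arrays were not paired, since the correlations of their deviations ran from -0.202 to 0.328 (63 pairs, median 0.006).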

Additional observations from a re-analysis of the deposited data

Results flagged for a closer look

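The response of *Acta2* to culture differed between the stages by the test of that difference in limma. The change at 1 h of culture was -2.07 log2 units at E12.5 relative to E10.5 (SE 0.31, adjusted p = 0.00341), and the change at 3 h was -2.41 (SE 0.31, adjusted p = 0.000378). At both stages and times the 3 cultured arrays lay above every 0 h array of their stage. With the placenta and decidua covariate the difference at 1 h was -1.63 (limma adjusted p = 0.0675). An unpaired t-test with Benjamini-Hochberg adjustment gave it an adjusted p of 0.0546. The difference at 3 h kept its call in all 26 alternatives run. Whether probe signal limits the E12.5 readings was not tested.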

How the results depend on the processing

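Counts below are members called of 9, each followed by the share of all genes called under the same setting, which moved with them. At E10.5, 2 (3.91%) were called at 1 h, with 4 (12.7%) under array weights and 1 (0.875%) with the placenta and decidua covariate. At 3 h 4 (4.68%) were called, with 1 (1.55%) under that covariate, 2 (0.552%) on the compared groups alone and 2 (1.49%) at an adjusted p under 0.01. At 6 h 3 (6.76%) were called, with 1 (2.31%) on the compared groups alone. At E12.5, 2 (2.11%) were called at 1 h, with 4 under array weights (9.95%), on the compared groups alone (4.18%), at an unadjusted p under 0.01 (5.81%) and by an unpaired t-test at that threshold (6.21%), and 1 (0.713%) at an adjusted p under 0.01. At 3 h 4 (27.5%) were called, with 7 (34.2%) on the compared groups alone, among them *Acta2*, and 1 (16.6%) at an adjusted p under 0.01. Between stages at 0 h 2 (27.1%) were called, with 4 after a shift to a common median (34.4%) and 4 under array weights (42.3%). For the difference of the 1 h change between stages 1 (0.538%) was called, with 2 under array weights (7.23%) and by the t-test at an unadjusted p under 0.01 (5.28%), and 0 with the covariate (0.283%). For the 3 h change 1 (14.3%) was called, with 2 after a common median (10.9%), quantile normalization (18.6%) or the covariate (10.7%). With Benjamini-Hochberg adjustment the t-test called 0 members at 1 h (0%), 3 h (0%) and 6 h (0.478%) of E10.5, at 1 h of E12.5 (0.00673%) and for the 1 h stage difference (0.343%). From 3 to 6 h of E10.5 0 (2.27%) were called, with 1 (*Acta2*) under quantile normalization (3.62%), without the 30% dimmest genes (3.84%), with a trended robust prior (2.68%), under array weights (12.6%), at an unadjusted p under 0.01 (6.47%) and with the replicate block (2.27%, limma adjusted p = 0.0456 for *Acta2*), and the replicate block changed no other count of members. The cause of these changes was not tested.

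Leaving out 1 array at a time gave 2 to 2 members after 1 h of E10.5 culture, 2 to 4 after 3 h, and 3 to 4 after 6 h. At E12.5 it gave 1 to 1 after 1 h and 2 to 4 after 3 h, and from 3 to 6 h of E10.5 it gave 0 to 1. The count was 2 at 3 h of E10.5 without any 0 h array or 3 h replicate 1 or 3, and 2 at 3 h of E12.5 without 0 h replicate 2 or 3 h replicate 1. Leaving out the 2 arrays of lowest median, chosen after seeing the data, gave 3, 4 and 4 members at E10.5 and 3 and 5 at E12.5. No member's called change reversed under any setting run. Dim members (*Actg2*, *Myh11*, *Lmod1*) limit what 3 arrays a group can show.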
